A study of Mus musculus with 47 samples.

Results

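The genes described here are 4 ERBB receptors (*Egfr*, *Erbb2*, *Erbb3* and *Erbb4*) and 6 ligands of the EGF family (*Areg*, *Ereg*, *Btc*, *Egf*, *Hbegf* and *Nrg1*). They were chosen by name and family from a table of 17078 genes, with earlier results of these data known, and all 10 were in the table. ERBB receptors are tyrosine kinases that act in pairs: a ligand binds the outer part of a receptor, receptors join in identical or mixed pairs, and the kinase domains phosphorylate each other's tails and start the RAS, MAP kinase and PI3 kinase cascades. Amphiregulin (*Areg*) and EGF (*Egf*) bind EGFR, betacellulin (*Btc*), epiregulin (*Ereg*) and HB-EGF (*Hbegf*) bind EGFR and ERBB4, and neuregulin 1 (*Nrg1*) binds ERBB3 and ERBB4. ERBB2 has no known ligand of its own, and the kinase of ERBB3 is weak, so both depend on their partners. In the mammary gland amphiregulin is known as an estrogen target needed for duct growth at puberty, and ERBB4 is known for its part in milk-producing cells.

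RNA-seq was performed on luminal and basal epithelial cells sorted from mammary glands of FVB/N mice at 8 time points, giving 46 libraries with values. Mice had never been pregnant at 10 weeks of age (W10) and 4 months of age (M4). The others were pregnant for 3.5 or 14.5 days (P3.5, P14.5), in lactation for 3 or 10 days (L3, L10), 2 days after forced weaning (Id2) or 4 weeks after weaning (Iw4, parous mice that the labels also call non-pregnant). Each time point had 3 luminal and 3 basal libraries, except that P14.5 and L10 had 2 basal libraries. Luminal cells were sorted as Lin-CD24+CD29lo and basal cells as Lin-CD24+CD29hi, with no genetic or drug treatment in any group. Glands of several mice were pooled for each sort, the paired luminal and basal libraries came from the same pool, and the gates were adjusted between sorts. For every group the tissue was digested in medium that held human EGF, insulin and hydrocortisone and was then kept cold overnight. All transcripts given here, those of the signalling and response genes included, were thus measured after exposure to a ligand of EGFR. The libraries held between 4398806 and 20023054 reads on genes. Values are in CPM, read counts scaled for depth by effective library size, and 3 reads, taken as the smallest measurable level, equal 0.17 to 1.05 CPM depending on the library. The luminal and basal libraries of a time point shared lane and amplification batch, whereas time points mostly lay in different batches. W10 and Id2 shared a batch, as did P3.5 with P14.5 and L3 with L10, but the libraries of these pairs ran on different lanes, so that lane and time point cannot be told apart in them. Iw4 and M4 shared a lane and were spread over the same 3 batches.

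Most libraries carried the markers of the cell type on their label. Without Id2, the summed level of 12 basal markers (*Krt5*, *Krt14*, *Trp63*, *Acta2* and others) lay between 13540 and 81931 CPM in the basal and between 159 and 2724 CPM in the luminal libraries. The sum of 12 luminal markers (*Krt8*, *Krt18*, *Elf5* and others) lay between 6100.2 and 24080 CPM in the luminal and between 868 and 3973 CPM in the basal libraries. Other cell types were visible in some libraries. The Lin- gate had selected against CD31 (endothelial cells), CD45 and CD11b (immune cells) and CD140a (fibroblasts), among others. At Id2 the basal marker sum was 1493 CPM in replicate 2, 18703 in replicate 4 and 1197 in replicate 6, and *Trp63*, the transcription factor of basal cells, averaged 13.3 CPM in basal libraries against 895 CPM at W10. In those 3 libraries all 12 basal markers still had reads, with *Acta2* the most abundant. The fibroblast sum (12 genes, led by *Col1a1*) was 3233, 10992 and 75076 CPM in the same order, the endothelial sum (12 genes) 20511, 876 and 673 CPM, and the pericyte sum (10 genes, led by *Rgs5*) 3409, 12064 and 2724 CPM. No marker of these 3 lists was at 0 there, and the corresponding W10 basal sums were at most 395, 276 and 206 CPM. Other basal libraries reached 12297 CPM for fibroblast (P14.5), 1927 for endothelial (L3) and 17603 for pericyte markers (L10). Replicate 6 thus lay above all basal libraries of other time points in fibroblast markers and replicate 2 in endothelial markers, both lay below them in basal markers, and no Id2 library lay outside their range in pericyte markers. *Trp63* was at most 26.6 CPM in the 3 Id2 basal libraries and at least 457 CPM in all other basal libraries. For the 10 genes, the comparison of the cell types over all time points and the variation across time points are given with and without Id2. Their comparisons at, into and out of Id2 rest on these libraries and are given with each sort left out in turn. The P14.5 basal libraries also had high fibroblast sums (12297 and 6145 CPM), and P14.5 basal replicate 5 had the highest luminal marker sum of any basal library.

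**Figure D1:**
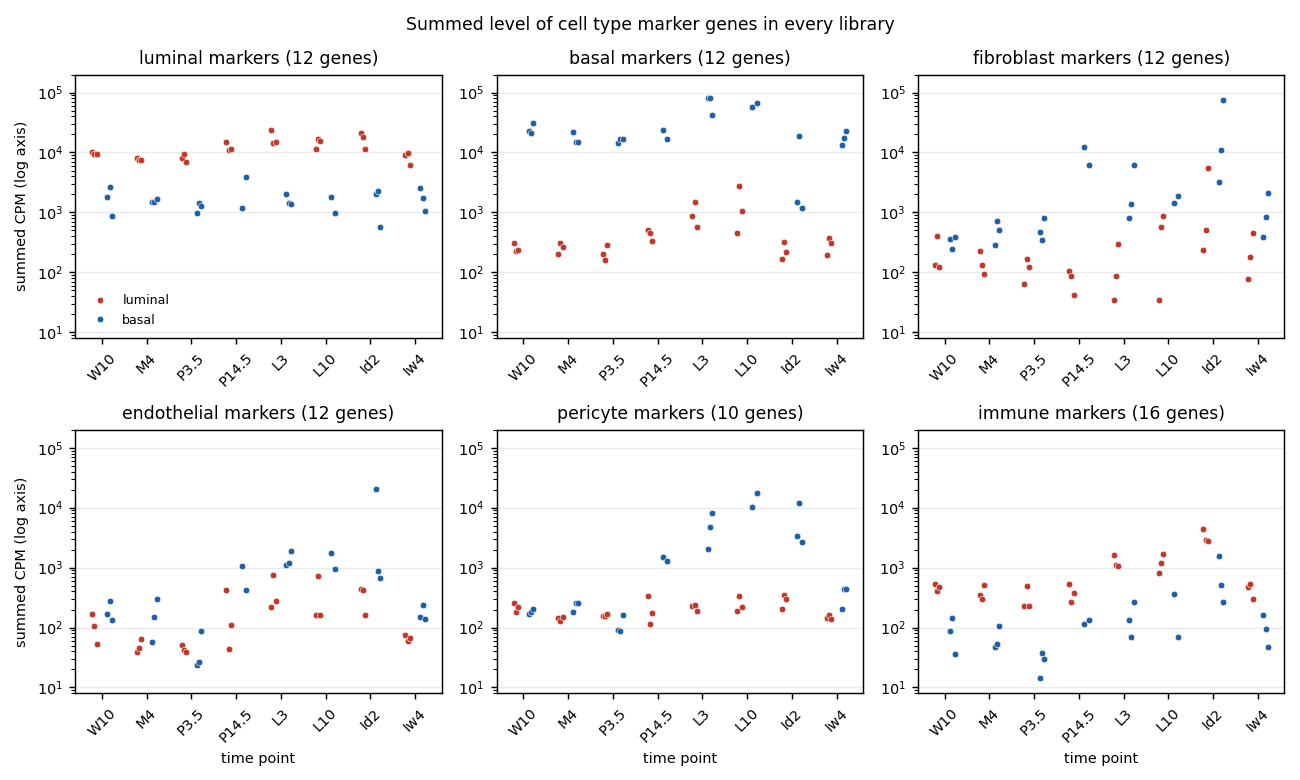
Summed CPM (log axis) of the genes on 6 marker lists in every library, by time point (x axis), with luminal libraries in red and basal libraries in blue. Basal markers sum to at least 13540 CPM in basal libraries except 2 of the Id2 libraries, at 1493 and 1197 CPM, and fibroblast, endothelial or pericyte markers are high in basal libraries of P14.5, L3, L10 and Id2.

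Divided by the length of their exons (CPM per kb), the genes differed widely in level. In luminal libraries the highest medians were those of *Areg* (46.0 CPM per kb), *Hbegf* (41.5) and *Erbb3* (37.7), followed by *Erbb2* (16.3), *Egfr* (9.12), *Erbb4* (3.09) and *Btc* (1.10). The ranges over libraries were wide: *Areg* spanned 1.00 to 304 CPM per kb and so overlapped all the others in this order, while *Erbb3* (18.8 to 57.3) overlapped *Erbb2* (12.2 to 23.3) only in part. In basal libraries the median was highest for *Egfr* (28.1 CPM per kb), followed by *Hbegf* (14.8), *Areg* (7.58), *Erbb2* (7.17), *Nrg1* (6.85), *Erbb3* (4.06) and *Ereg* (1.68). The basal ranges of neighbours in this order overlapped, with *Egfr* at 5.61 to 93.1, *Hbegf* at 4.48 to 188, *Areg* at 0 to 45.9, *Erbb2* at 4.52 to 16.2 and *Nrg1* at 0.241 to 38.2 CPM per kb, so the order is one of medians. *Egf* was at the edge of detection: 9 of 24 luminal and 15 of 22 basal libraries had fewer than 3 reads. *Btc* had fewer than 3 reads in 6 basal libraries, *Ereg* in 5 luminal libraries and *Nrg1* in 2 luminal libraries. Since these are bulk samples, fewer cells of a type and less RNA per cell cannot be told apart.

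Basal and luminal cells were compared to ask which of them carry each receptor and ligand. The test was a limma model of log2(CPM + 1) over all libraries, with p-values adjusted over all 17078 genes, and a call needed both an adjusted p below 0.01 and a change of 2-fold or more. Replicates were separate sorts of pooled mice, so the p-values measure the spread between sorts. Over all time points 9 of the 10 genes were called, 3 higher in basal cells (*Nrg1*, *Ereg*, *Egfr*) and 6 higher in luminal cells (*Erbb2*, *Erbb3*, *Erbb4*, *Areg*, *Btc*, *Hbegf*), against 21.0% of all genes in either direction, 13.6% higher and 7.35% lower in basal cells. *Egf* differed by -0.93 on the log2 scale (SE 0.24, adjusted p = 0.0013) and missed the fold threshold. The 9 calls were kept without the Id2 libraries, without the L3 and L10 libraries and without each sort in turn. Of 80 comparisons at single time points 45 were called (16.9% of all genes and time points), and 20 of the 45 were kept with each sort left out in turn. Under the other alternatives, which include a pseudocount of 0.1 CPM in place of 1 and edgeR on recovered reads, 34 of the 45 were kept. The number called was 7 at W10 (14.2% of all genes), 6 at P3.5 (11.9%), 3 at P14.5 (12.9%), 7 at L3 (25.8%), 5 at L10 (24.7%), 6 at Id2 (21.6%), 5 at Iw4 (11.5%) and 6 at M4 (12.4%). The luminal and basal libraries of a time point did not overlap in 65 of the 80 cases, 20 with basal above luminal and 45 with luminal above basal. For all genes these shares were 42.7%, 23.4% and 19.4%.

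**Figure D2:**
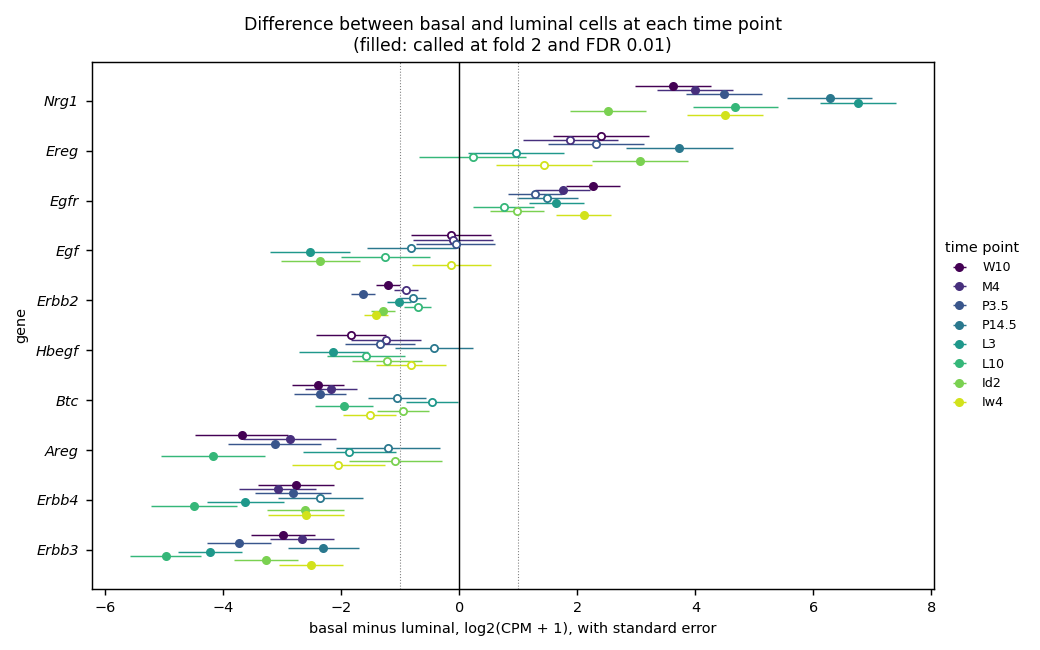
Difference between basal and luminal cells (x axis, log2(CPM + 1), points with standard errors) for the 10 genes (y axis) at the 8 time points (colour), filled where the gene was called. *Nrg1* lies to the right at every time point, from 2.52 at Id2 to 6.75 at L3, and *Erbb3* to the left, from -2.31 at P14.5 to -4.98 at L10.

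Of the receptors, *Egfr*, the receptor for most ligands of the family, was the one higher in basal cells. At W10 its level was 506, 459.7 and 608 CPM in basal and 86.2, 108 and 133 CPM in luminal libraries, and at L10 it was 199 and 243 CPM against 100.3, 156 and 141 CPM. Basal libraries lay above all luminal libraries at 7 of 8 time points. Over all time points the difference was 1.53 on the log2 scale (2.90-fold, SE 0.17, adjusted p = 4e-10). It was called at W10, L3, Iw4 and M4, and of these calls the one at W10 was kept without each sort. The others were lost without L3 replicate 4 or 6 (1.49 and 1.55), Iw4 replicate 5 or 6 (2.10 and 2.01), or any of M4 replicates 1, 2 and 6 (1.65 to 1.87). At Id2 the cell types overlapped: basal *Egfr* was 63.6 CPM in replicate 2, 283 in replicate 4 and 1055 in replicate 6, against 122, 104 and 195 CPM in luminal cells. The lowest and the highest basal values of *Egfr* in the series were thus both at Id2, and replicate 6 was the library with a fibroblast marker sum of 75076 CPM. The part of those cells in the value was not tested.

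*Erbb2*, the partner receptor without a ligand, had the smallest ratio of highest to lowest library of the 10 genes. Its luminal level was 116, 116 and 117 CPM at W10 and 65.7, 84.3 and 63.5 CPM at L3, and its basal level was 48.9, 54.1 and 46.0 CPM at W10 and 25.9, 30.9 and 28.4 CPM at Id2. Every luminal library lay above every basal library of its time point, at all 8 time points. Over all time points *Erbb2* was 2.18-fold lower in basal cells (log2 -1.12, SE 0.074, adjusted p = 5.5e-16), with single time points between -1.63 at P3.5 and -0.71 at L10. It was called at W10, P3.5, L3, Id2 and Iw4, and lost at L3 without L3 replicate 5 (-0.89). The step from L10 to Id2 in basal cells was called (-1.03, SE 0.23, adjusted p = 9.4e-04), but L10 held only 2 basal libraries, at 41.1 and 84.1 CPM, and the difference was -0.52 without L10 replicate 6 (adjusted p = 0.18) and -0.97 without Id2 replicate 2. With median-ratio scaling it was also -0.97, below the fold threshold.

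*Erbb3*, the neuregulin receptor with the weak kinase, differed most among the receptors. Luminal libraries ranged from 113 to 345 CPM and basal libraries from 1.23 to 80.8 CPM, so that the cell types did not overlap across the whole series. The difference was -3.34 over all time points (10.1-fold, SE 0.20, adjusted p = 2.3e-17), and it was called at all 8 time points. The calls at P14.5, Iw4 and M4 were lost without P14.5 replicate 2 or 3 (-2.22 and -1.64), Iw4 replicate 5 or 6 (-2.45 and -2.28) or M4 replicate 1 (-2.42). The call at P14.5 was also lost with a pseudocount of 0.1 and with edgeR (-2.33 and -2.12). In basal cells *Erbb3* was lower in lactation, with 15.3, 1.65 and 11.0 CPM at L3 and 12.6 and 1.23 CPM at L10, than at W10 (34.4, 61.5 and 18.5 CPM) and M4 (20.5, 35.0 and 49.1 CPM). The groups did not overlap. The highest basal value, 80.8 CPM, was that of P14.5 replicate 5, the basal library with the highest luminal marker sum (3973 CPM).

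*Erbb4*, the receptor shared by neuregulins and several EGFR ligands, was also higher in luminal cells, at a lower level there than *Erbb3*. Luminal libraries ranged from 8.05 to 104 CPM and basal libraries from 0 to 34.6 CPM, with luminal above basal at all 8 time points. Over all time points the difference was -3.04 (8.25-fold, SE 0.24, adjusted p = 5e-14). It was called at 7 time points, the exception being P14.5, where the basal libraries held 2.48 and 34.6 CPM (-2.35, adjusted p = 0.016, and 0.0069 with the sort as a block). Of the 7 calls those at L3 and L10 were kept without each sort, and those at W10, P3.5, Id2, Iw4 and M4 were lost without at least 1 sort of that time point (log2 -2.86 to -2.16). With a pseudocount of 0.1 the calls at W10 (-2.98), P3.5 (-3.21) and Iw4 (-2.83) were lost, the last of them with edgeR too (-2.77). In luminal cells *Erbb4* was lowest at Id2 (21.1, 8.05 and 16.3 CPM) and reached 104 CPM in L10 replicate 6. Neither the variation of *Erbb4* across time points in luminal cells nor that in basal cells passed the F test.

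**Figure D3:**
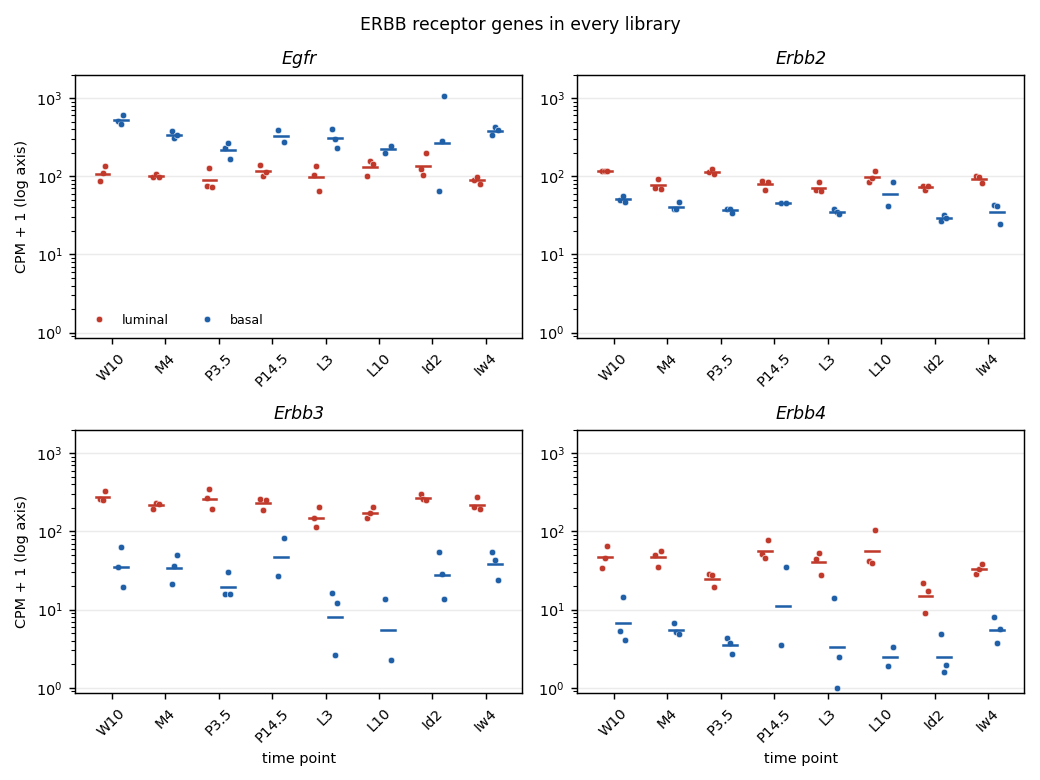
CPM + 1 (log axis) of the 4 receptor genes in every library by time point (x axis), luminal in red and basal in blue, with horizontal bars at the mean of the log values. *Egfr* is higher in basal libraries except at Id2, where they spread from 63.6 to 1055 CPM, and the other 3 receptors are higher in luminal libraries at each time point.

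Among the ligands, *Areg* moved over a wide range in luminal cells. Its luminal level was 219, 369 and 149 CPM at W10, 274, 152 and 41.9 CPM at M4, and 356, 336 and 233 CPM at P3.5. It was 35.2, 12.6 and 25.6 CPM at P14.5, 6.67, 26.0 and 3.16 CPM at L3, 73.4, 80.9 and 16.8 CPM at L10 and 7.11, 4.49 and 1.22 CPM at Id2. At Iw4 it was 143, 62.0 and 49.9 CPM. All P3.5 libraries lay above all P14.5 libraries, and these 2 time points shared an amplification batch. The step from P3.5 to P14.5 was -3.69 (SE 0.79, adjusted p = 0.0037), and its call was lost without P14.5 replicate 3 or 5 or any of P3.5 replicates 2, 4 and 6 (-3.88 to -3.29, adjusted p = 0.014 to 0.04). From L10 to Id2 *Areg* fell by 3.37 (adjusted p = 0.0042), with the call lost without Id2 replicate 4 or 6 or L10 replicate 4 or 5 (-3.49 to -2.84). From Id2 to Iw4 it rose by 4.06 (SE 0.79, adjusted p = 2.4e-04), a call kept without each sort. Id2 and W10 shared a batch, and between them *Areg* differed by -5.64 (49.8-fold, adjusted p = 2.1e-06). In basal cells *Areg* was lower than in luminal cells, by 2.51 over all time points (5.69-fold, SE 0.29, adjusted p = 1.1e-09), and the libraries did not overlap at 6 of 8 time points. Basal *Areg* moved over time too: 20.6, 55.8 and 33.7 CPM at P3.5, 8.88 and 9.55 CPM at P14.5, and at most 6.03 CPM at L3, L10 and Id2. Of the 4 single time points at which the cell types differed (W10, P3.5, L10 and M4) no call was kept without each sort: it was lost without W10 replicate 6 (-3.10), L10 replicate 6 (-3.47), any P3.5 replicate (-3.40 to -2.66) or any M4 replicate (-3.36 to -2.38). With a pseudocount of 0.1 the calls at P3.5 (-3.16) and M4 (-2.94) were lost, the first of them with edgeR too (-3.07). The luminal steps from P3.5 to P14.5 and from L10 to Id2 also lost their calls with that pseudocount (adjusted p = 0.028 and 0.014) and with edgeR (0.017 and 0.011).

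*Areg* lies on chromosome 5 beside *Ereg* and *Btc*, with *Epgn*, another EGFR ligand, at the end of the same row of genes. Because *Areg* and *Btc* both fell in luminal cells in lactation, as given below, the 120 bases before their transcription starts are shown, from RefSeq on GRCm38.p6, 5′ to 3′ on the strand of the gene. The *Areg* stretch is chr5:91139479-91139598 on the plus strand and the *Btc* stretch is chr5:91402995-91403114 on the minus strand. Capitals mark matches to the cAMP response element TGACGTCA, which reads the same on both strands, and to TATAAA, searched on both strands. The matches shown do not overlap each other.
Areg: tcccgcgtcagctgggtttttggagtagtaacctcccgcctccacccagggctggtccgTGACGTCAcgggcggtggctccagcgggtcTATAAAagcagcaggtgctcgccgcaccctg
Btc: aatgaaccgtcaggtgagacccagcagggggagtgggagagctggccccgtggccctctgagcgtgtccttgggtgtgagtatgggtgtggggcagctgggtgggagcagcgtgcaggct
In *Areg* the response element begins 61 bases and TATAAA 31 bases before the start, and *Btc* has neither in this window. Of 32851 promoters in the RefSeq table, 1.55% hold TGACGTCA and 12.4% hold TATAAA in the 250 bases before the start. Of the 6 genes of this set with a promoter in that table (*Areg*, *Btc*, *Egf*, *Egfr*, *Erbb2* and *Erbb4*), *Areg* alone holds either.

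*Btc*, whose product binds EGFR and ERBB4, was a low-level gene of luminal cells. Luminal libraries had 5.54, 11.7 and 14.1 CPM at W10, 13.7, 8.39 and 8.53 CPM at M4, 0.721, 3.06 and 0.701 CPM at L3, and 2.66, 2.68 and 3.89 CPM at L10. Every lactation library lay below every library of the never pregnant mice. Basal libraries had at most 3.53 CPM. The difference between the cell types over all time points was -1.61 (3.05-fold, SE 0.16, adjusted p = 4.3e-11), and -2.59 with edgeR, since adding 1 CPM to each value understates the fold change of low genes. It was called at W10, P3.5, L10 and M4, and lost without W10 replicate 6 (-1.85), L10 replicate 5 or 6 (-2.08 and -1.76) or M4 replicate 1 (-1.92). The calls at P3.5 and M4 were also lost with a pseudocount of 0.1 (-2.98 and -2.72) and with edgeR (-2.92 and -2.77). At Iw4 it was called with the sort as a block (-1.52, adjusted p = 0.0058, and 0.011 without), and at L3 the cell types overlapped.

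*Egf*, the gene of the founding ligand, was measurable mainly in luminal cells of L3, L10 and Id2. It was at most 0.927 CPM in luminal libraries of the other time points. At L3 it was 8.30, 0.471 and 89.1 CPM, at L10 0.532, 2.17 and 8.20 CPM and at Id2 12.6, 8.98 and 8.34 CPM. The 3 Id2 libraries agreed closely and the 3 L3 libraries did not. The L3 libraries differed in the same order in the sum of the milk protein genes, which was 1047320, 371192 and 1692020 CPM, and the part of that difference in *Egf* was not tested. Values are scaled by effective library size, so such sums are not shares of a library. A single read equalled 0.180, 0.118 and 0.351 CPM in these libraries, in the same order. The step from P14.5 to L3 was called (2.61, SE 0.67, adjusted p = 0.0068), but without L3 replicate 6 it was 1.07 (adjusted p = 0.17), and the call was also lost without L3 replicate 4 or any of P14.5 replicates 2, 3 and 5 (2.57 to 2.71). The fall from Id2 to Iw4 was 3.24 (SE 0.67, adjusted p = 5.3e-04) and the difference of Id2 from W10 was 3.21 (SE 0.67, adjusted p = 6e-04), and both were kept without each sort. Basal libraries had at most 1.87 CPM. The cell types differed at L3 (-2.53) and at Id2 (-2.36), but the first of these calls was lost without L3 replicate 6 (-0.99) and the other without any of Id2 replicates 2, 4 and 6 (-2.41 to -2.25), and edgeR did not call it at Id2 (adjusted p = 0.04). With a pseudocount of 0.1 neither was called (adjusted p = 0.022 at L3 and 0.03 at Id2), nor was the step from P14.5 to L3 (adjusted p = 0.052).

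*Hbegf*, a ligand made as a membrane-bound precursor, was abundant in both cell types. Luminal libraries had 153, 192 and 217 CPM at W10, 177, 431 and 297 CPM at L10 and 525, 466 and 413 CPM at Id2. Basal libraries had 54.6, 79.2 and 30.9 CPM at W10, 117 and 75.6 CPM at L10 and 911, 192 and 44.8 CPM at Id2. The luminal Id2 libraries were all high, whereas the basal Id2 libraries spread from below every luminal library to above every other library. The difference between the cell types was -1.33 over all time points (2.51-fold, SE 0.22, adjusted p = 1.6e-06), and the libraries did not overlap at 6 of 8 time points. At single time points it was called at L3, and lost there without L3 replicate 4 or 5 (-1.86 and -1.64), while at W10 it was called with the sort as a block (-1.84, adjusted p = 0.0091, and 0.02 without). In basal cells the difference of Id2 from W10 was 1.94 (SE 0.59, adjusted p = 0.011) and just missed the threshold, while edgeR called it (adjusted p = 7.1e-04). It ranged from 0.85 to 3.01 with each sort left out. The basal library at 911 CPM, Id2 replicate 2, was the one with an endothelial marker sum of 20511 CPM, and the part of those cells was not tested.

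*Nrg1*, the ligand of ERBB3 and ERBB4, separated the cell types most of all 10 genes. Basal libraries had 127, 51.5 and 47.9 CPM at W10, 41.2, 39.6 and 54.1 CPM at M4, 77.5, 105 and 51.7 CPM at P3.5 and 169.6 and 108 CPM at P14.5. They had 395, 359 and 195 CPM at L3, 137 and 121 CPM at L10, 2.50, 4.55 and 18.7 CPM at Id2, and 64.4, 47.7 and 87.0 CPM at Iw4. Luminal libraries had between 0 and 9.47 CPM, apart from L10 replicate 5 at 23.1 CPM. All basal libraries lay above all luminal libraries at each of the 8 time points, and the 3 L3 libraries lay above all other basal libraries. Over all time points the difference was 4.60 (24.3-fold, SE 0.23, adjusted p = 3.1e-19). It was called at all 8 time points and kept without each sort at 7, while at Id2 (2.52) it was lost without Id2 replicate 4 (2.55) or 6 (2.14). In basal cells *Nrg1* fell by 4.16 from L10 to Id2 (17.8-fold, SE 0.72, adjusted p = 5.2e-05) and rose by 3.17 from Id2 to Iw4 (SE 0.64, adjusted p = 2.4e-04). Id2 was lower than W10, of the same batch (log2 -3.25, adjusted p = 1.7e-04). These 3 calls were kept without each sort. The basal marker sum of 2 of the 3 Id2 libraries was also low, as given above, but replicate 4 had *Nrg1* at 4.55 CPM with a basal marker sum of 18703 CPM, below all basal libraries of W10 (21361 to 31407 CPM) and L10 (58082 to 66563 CPM) and within the range at Iw4 (13540 to 22798 CPM). The most abundant gene of that sum was *Acta2*, which contractile vessel cells also express, and *Trp63* was low in all 3 Id2 basal libraries. Fewer basal cells and less *Nrg1* per basal cell cannot be told apart there.

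*Ereg*, a ligand of EGFR and ERBB4, was higher in basal cells by 2.00 over all time points (4.00-fold, SE 0.30, adjusted p = 2.6e-07), at a low level in most libraries. Basal libraries had 24.8, 8.71 and 2.73 CPM at W10, 9.73, 30.4 and 15.2 CPM at P3.5, 24.6 and 21.7 CPM at P14.5, 1.44, 3.55 and 3.90 CPM at L3 and 6.46 and 0.475 CPM at L10. At Id2 they had 6.71, 148 and 109 CPM. Luminal libraries had at most 8.75 CPM. Replicates 4 and 6 of Id2 were thus the highest, and these were the basal libraries with fibroblast marker sums of 10992 and 75076 CPM, against 3233 CPM in replicate 2. The part of those cells was not tested. *Ereg* was called between the cell types at P14.5 (3.73) and Id2 (3.06), and lost without P14.5 replicate 3 or 5 (3.34 and 4.07) or Id2 replicate 4 or 6 (2.44 and 2.84). The rise from L10 to Id2 in basal cells (3.92, adjusted p = 0.0015) lost its call without Id2 replicate 4 or 6 or L10 replicate 6 (2.75 to 3.35), and the fall from Id2 to Iw4 (-3.10, adjusted p = 0.0034) without Id2 replicate 4 or 6 or Iw4 replicate 3 or 5 (-3.22 to -2.32). With a pseudocount of 0.1 these 2 steps and the difference at Id2 were not called (adjusted p = 0.013, 0.042 and 0.037), nor was the first step with edgeR (adjusted p = 0.011).

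**Figure D4:**
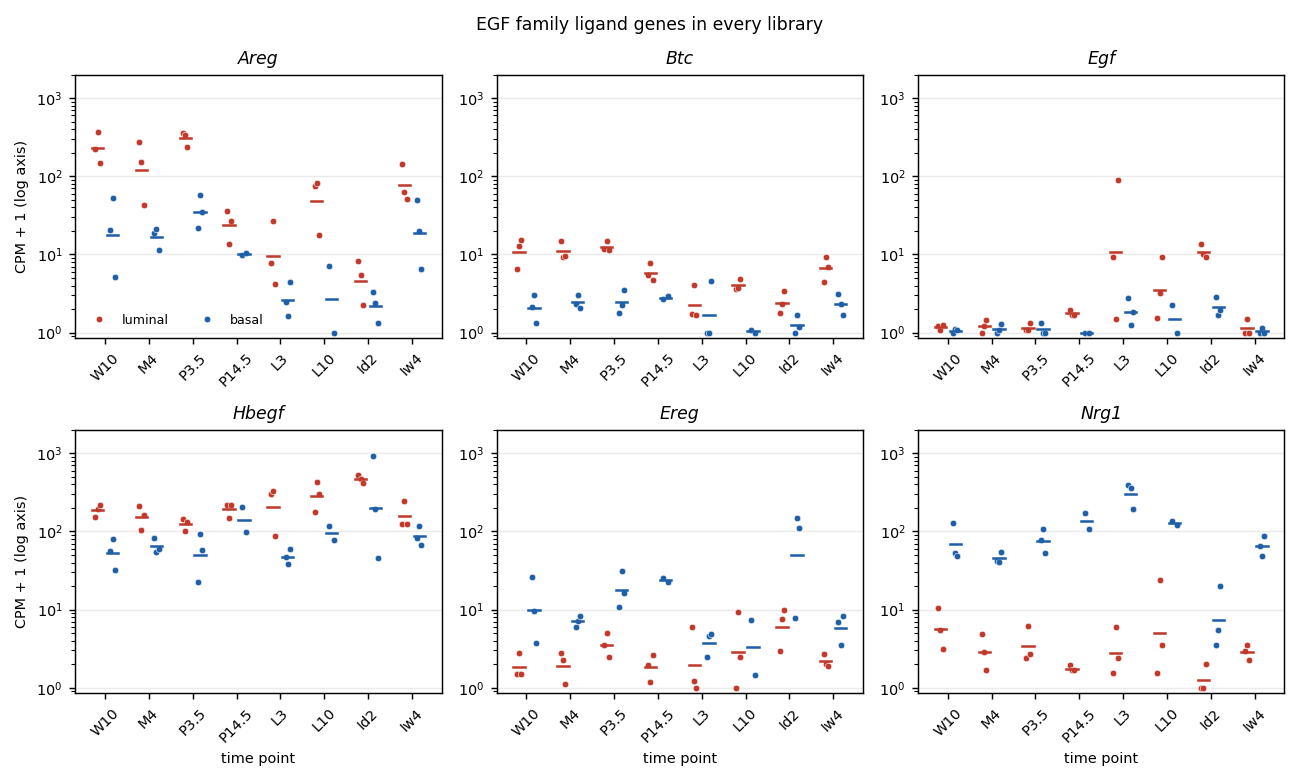
CPM + 1 (log axis) of the 6 ligand genes in every library by time point (x axis), luminal in red and basal in blue, with horizontal bars at the mean of the log values. Luminal *Areg* is between 1.22 and 80.9 CPM from P14.5 to Id2 and at least 41.9 CPM at the other time points, and basal *Nrg1* reaches 395 CPM at L3 and is 2.50 to 18.7 CPM at Id2.

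Variation across the 8 time points was tested for each cell type. In luminal cells 4 of the 10 genes varied at a false discovery rate below 0.01 (*Erbb2*, *Areg*, *Btc* and *Egf*; moderated F test of limma), against 34.0% of all genes. In basal cells 5 of 10 varied (*Erbb2*, *Erbb3*, *Areg*, *Ereg* and *Nrg1*), against 44.5%. The members' shares were thus near those of all genes. Without the Id2 libraries *Areg*, *Btc* and *Egf* varied in luminal cells (28.9% of all genes) and *Egfr*, *Erbb3*, *Areg* and *Nrg1* in basal cells (35.1%). With edgeR *Btc* was not called and *Nrg1* was in luminal cells (4 of 10, against 33.9% of all genes), and *Hbegf* was added in basal cells (6 of 10, against 42.7%). Luminal *Erbb2* was not called without the milk protein genes (adjusted p = 0.014), nor basal *Ereg* with a pseudocount of 0.1 (adjusted p = 0.035). Apart from the 3 pairs of time points that shared a batch and the parous comparison, time point and amplification batch cannot be told apart, and within those 3 pairs time point and lane cannot.

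The change in lactation was measured as the mean of L3 and L10 against the mean of W10 and M4, the never pregnant mice. In luminal cells *Areg* fell by 2.97 (7.85-fold, SE 0.56, adjusted p = 7.5e-05), *Btc* fell by 1.84 (3.58-fold, SE 0.31, adjusted p = 1.9e-05), and *Egf* rose by 2.37 (SE 0.48, adjusted p = 1.8e-04). The remaining 7 genes were not called, so 3 of 10 were, against 13.2% of all genes. The lactation and never pregnant luminal libraries did not overlap for *Btc* and *Egf*, as for 9.85% of all genes, but for *Egf* the lowest lactation library (0.471 CPM) was barely above the highest never pregnant one (0.468 CPM). These 3 calls were kept without each sort, with *Egf* between 1.61 and 3.09. In basal cells *Nrg1* rose by 1.82 (3.53-fold, SE 0.48, adjusted p = 0.0031), *Areg* differed by -2.71 (6.56-fold, SE 0.59, adjusted p = 4.2e-04) and *Erbb3* by -2.37 (5.18-fold, SE 0.41, adjusted p = 1.6e-05), so 3 of 10 were called, against 16.5% of all genes. *Erbb3* was the gene among them whose basal libraries did not overlap, as for 16.2% of all genes. *Erbb3* kept its call without each sort (-3.02 to -1.72). Without L10 replicate 6 it was the 1 gene called: *Nrg1* was then 1.87 (adjusted p = 0.013) and *Areg* -2.01 (adjusted p = 0.015). The *Nrg1* call was also lost without W10 replicate 5 (1.72, adjusted p = 0.01), with W10 alone as the never pregnant group (1.52, adjusted p = 0.05) and with a pseudocount of 0.1 (1.84, adjusted p = 0.028). *Erbb4* (-1.10, SE 0.49, adjusted p = 0.075) and *Btc* (-0.77, SE 0.33, adjusted p = 0.069) in basal cells were not called, but *Erbb4* was without L3 replicate 4 (-1.63, adjusted p = 0.0041) and *Btc* without L3 replicate 6 (-1.13, adjusted p = 0.0029).

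Other cell type markers moved with these groups. Between the same groups, 12 of 12 endothelial and 10 of 10 pericyte markers were higher and 6 of 12 luminal markers were lower (1 was higher) in lactating basal cells, with median log2 differences of 2.75, 4.27 and -1.29, against -0.05 over all genes. In lactating luminal cells 7 of 12 basal markers were higher and 1 lower, with a median of 1.57, and 9 of 12 endothelial markers were higher, with a median of 1.94. The summed basal markers also differed in basal libraries, from 14825 to 31407 CPM in never pregnant mice and from 42559 to 81931 CPM in lactation, without overlap. The fibroblast markers of basal libraries summed to at most 713 CPM in never pregnant mice and at least 812 CPM in lactation, and the immune markers of luminal libraries to at most 530.4 and at least 807 CPM. Of the markers of hormone sensing luminal cells (*Esr1*, *Pgr* and others) 4 of 10 were lower in lactating luminal cells and none was higher, with a median of -1.25. The luminal mean of the summed list was 3779 CPM at W10, 2711 at M4, 1644 at P3.5, 597 at P14.5, 1489 at L3, 1645 at L10, 2307 at Id2 and 2935 at Iw4. In the same order luminal *Areg* averaged 246, 156, 308, 24.5, 11.9, 57.1, 4.28 and 84.8 CPM. The sum weights abundant genes most, so it need not follow the other genes of the list. Between W10 and Id2 in luminal cells, *Ly6a* of this list lay higher at Id2 (not called) and the others lower, as given below. The part of these cell types in the changes was not tested.

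Whether luminal and basal cells changed differently in lactation was tested as an interaction. No gene of the 10 was called by limma (10.3% of all genes were), although 4 had an unadjusted p below 0.05 (*Erbb3*, *Btc*, *Egf* and *Nrg1*), and edgeR also called 0 and had 2 below 0.05 (*Erbb3* and *Ereg*). *Erbb3* fell further in basal cells by 1.78 (log2 -1.78, SE 0.56, adjusted p = 0.021). This difference was called with the sort as a block (-1.79, adjusted p = 0.0082) and without L10 replicate 5 (-2.43). It ranged from -2.43 to -1.07 with each sort left out. For *Nrg1* the difference was 1.91 (SE 0.66, adjusted p = 0.038), and between 1.48 and 2.43 with each sort left out. It was called without L10 replicate 5 (2.43), the sort whose luminal library held *Nrg1* at 23.1 CPM. For *Egf* the difference was called without L3 replicate 5 (-2.34, adjusted p = 0.0014), the sort with 0.471 CPM in luminal cells. *Areg* fell in both cell types, and the difference between its changes was 0.26 (SE 0.81, adjusted p = 0.87).

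**Figure D5:**
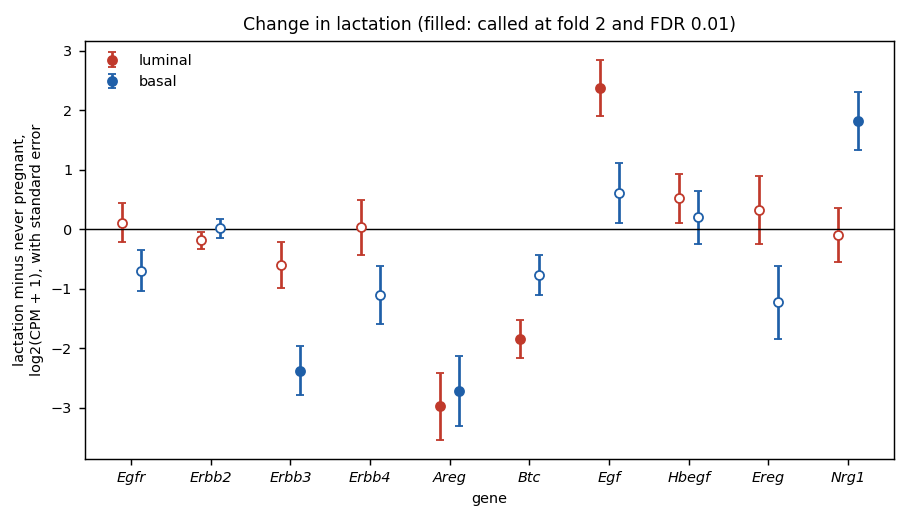
Change from the never pregnant time points to lactation (y axis, log2(CPM + 1), points with standard errors) for each gene (x axis) in luminal (red) and basal (blue) cells, filled where called. *Areg* is at -2.97 in luminal and -2.71 in basal cells, *Egf* at 2.37 in luminal cells, and *Nrg1* at 1.82 and *Erbb3* at -2.37 in basal cells.

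The remaining comparisons of time points were counted in the same way. Between successive time points from W10 to Iw4, 5 of 60 comparisons were called in luminal cells (4.16% of all genes and steps), 3 of them for *Areg* and 2 for *Egf*. By step the luminal share of all genes was 1.82% from W10 to P3.5, 1.52% to P14.5, 6.17% to L3, 0.381% to L10, 4.56% to Id2 and 10.5% to Iw4. Without P14.5 replicate 3 or without P14.5 replicate 5 there were 3. In basal cells 8 of 60 were called (7.69%), and 7 of the 8 were steps into or out of Id2. By step the basal shares were 6.76%, 3.64%, 3.89%, 1.14%, 13.3% and 17.4% in the same order. Without L10 replicate 6 or without Id2 replicate 4 there were 5. The eighth was *Erbb3* from P14.5 to L3 (-2.54, adjusted p = 0.0055), lost without L3 replicate 5 or P14.5 replicate 5 (both -1.74), and its basal step from L10 to Id2 (2.34, adjusted p = 0.0041) was lost without Id2 replicate 2 (1.84), Id2 replicate 4 (2.32) or L10 replicate 6 (1.04). *Areg* rose from Id2 to Iw4 in basal cells by 3.09 (adjusted p = 0.0027), with the call lost without Id2 replicate 6 or Iw4 replicate 3 or 5 (2.39 to 3.04). Neither *Erbb3* step was called by edgeR (adjusted p = 0.013 and 0.02). Between Id2 and W10, in 1 amplification batch, 3 genes were called in luminal cells (*Areg*, *Btc* at -2.15 and *Egf*, against 10.4% of all genes, with *Btc* not called by edgeR, adjusted p = 0.025, or with a pseudocount of 0.1, adjusted p = 0.019) and 2 in basal cells (*Nrg1* and *Areg*; 17.4%). The basal *Areg* call (-3.03) was lost without Id2 replicate 6 (-2.67), W10 replicate 3 (-2.93) or W10 replicate 5 (-2.25), leaving 1 called in the last 2 cases. In these luminal Id2 libraries 15 of 16 immune markers were higher than at W10, led by *Laptm5* (4.39). Their summed level was at least 2818 CPM against at most 530.4 CPM. Of the fibroblast markers 6 of 12 were higher, led by *Col1a2* (5.59), with sums of 238, 515 and 5431 CPM in Id2 replicates 2, 4 and 6. Of the hormone sensing markers 2 of 10 were lower, *Cited1* (-4.01) and *Wnt4* (-3.29), with a list median of -1.73 against -0.04 over all genes. The values of 9 of the 10 lay below 0, and that of *Ly6a* lay above 0 (4.45-fold higher, adjusted p = 0.028, not called). The part of these cells in the luminal differences, that of *Areg* included, was not tested.

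Parous and age-matched never pregnant mice were compared to see whether the state after involution differs from that before pregnancy. None of the 10 genes was called in luminal cells (0.00% of all genes) or in basal cells (0.00586%), by limma or by edgeR, and none had an unadjusted p below 0.05 with either tool. With amplification batch as a term, an alternative added after seeing the data, 0 were called and 0 had an unadjusted p below 0.05 in either cell type. Within the 3 batches the differences had 1 sign for 4 of 10 genes in luminal cells (25.8% of all genes) and for 3 of 10 in basal cells (23.3%). In luminal cells these were *Egfr*, *Erbb4* and *Btc*, lower at Iw4, and *Erbb2*, higher. In basal cells they were *Egfr*, *Hbegf* and *Nrg1*, all higher at Iw4. No effect of parity is read from these counts. The log2 differences lay between -0.73 and 0.27 in luminal and between -0.27 and 0.52 in basal cells, with standard errors of 0.20 to 0.81, so that differences of about this size were not detectable here. Luminal *Areg*, for example, was 143, 62.0 and 49.9 CPM at Iw4 and 274, 152 and 41.9 CPM at M4, and the groups overlapped.

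The genes that release these ligands, carry the signal and respond to it were counted from fixed lists. Between basal and luminal cells over all time points, 1 of 4 other ligands was higher in basal cells (*Nrg2*, 2.25) and 1 lower (*Epgn*, -1.14), while *Tgfa*, another EGFR ligand, differed by 0.33 and was not called (adjusted p = 0.31). Of 12 sheddases and their partners, which cut membrane-bound ligands free, 2 were higher (*Adam12*, 3.49, and *Adam19*, 3.18) and 2 lower (*Rhbdf2*, -1.70, and *Adam8*, -1.65). Of 29 adaptors and kinases 2 were higher, among them *Plcg1* (1.31), and 2 lower (*Pik3cb*, -1.27, and *Gab2*, -1.14). Of 21 feedback inhibitors 5 were higher, led by *Spry1* (3.53), *Lrig3* (3.02), *Spry4* (2.23) and *Spred1* (1.75), and 3 were lower (*Cblc*, -2.04, *Dusp5*, -1.65, and *Dusp4*, -1.59). Sprouty and LRIG proteins act against receptor tyrosine kinases, CBLC marks receptors for turnover, and DUSP proteins remove phosphates from MAP kinases. Of 16 immediate early targets, transcription factors and other genes that respond quickly to MAP kinases, 6 were higher, led by *Egr2* (3.37), *Etv5* (3.03), *Egr1* (2.18) and *Fos* (1.85). The list medians were -0.25, -0.14, 0.09, 0.61 and 0.89 in that order, against 0.02 over all genes, of which 21.0% were called. All these counts, values and medians include the Id2 libraries. In basal cells *Adam12* (2.96), *Adam19* (2.16) and *Spry4* (3.16) were higher at Id2 than at W10. *Lrig3* (-1.83), *Egr2* (-2.59) and *Etv5* (-3.11) were lower there. The part of the Id2 libraries in the differences was not tested, nor was that of the EGF in the digestion medium.

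In lactating luminal cells, where 13.2% of all genes were called, 3 of 12 sheddases and partners, 3 of 29 adaptors and kinases, 3 of 21 feedback inhibitors and 3 of 16 immediate early targets were. Of the sheddases and partners *Adam8* rose by 1.93, *Adam10*, which cuts betacellulin and EGF free, fell by 1.69 and *Rhbdl2* fell by 1.06. Of the adaptors and kinases *Hras* (1.36), *Akt1* (1.18) and *Pik3r1* (1.18) rose. Of the feedback inhibitors *Cblb* rose (1.10) and *Spred1* (-1.50) and *Dusp6* (-1.05) fell, and of the immediate early targets *Dusp1* (1.65) and *Myc* (1.34) rose and *Ccnd1* (-1.42) fell. The 4 other ligands were not called, with log2 differences of 0.05 for *Nrg2* to 0.92 for *Epgn*. In lactating basal cells *Nrg2* rose by 1.93 among the other ligands, *Adam15* (1.26) and *Adam9* (1.21) among the sheddases, and *Gab2* (2.75) among the adaptors and kinases. *Spry4* rose (2.49) while *Spred1* (-1.71) and *Cblc* (-1.60) fell, and *Fosb* (1.44), *Dusp1* (1.30) and *Jun* (1.24) rose while *Egr2* (-2.35), *Etv4* (-2.21), *Egr3* (-1.88) and *Etv5* (-1.34) fell. The counts in basal cells were 1 of 4, 2 of 12, 2 of 29 (of which only *Gab2* is named), 3 of 21 and 7 of 16, beside 16.5% of all genes. These genes too were measured after digestion in medium with EGF, and its part in the differences was not tested.

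For each gene, genes with the most similar profile were taken by Pearson correlation over the 16 means of time point and cell type, among 10580 genes with a mean of at least 5 CPM. These are descriptions, since the luminal and basal points of a time point share sorts and the 16 points mostly fall apart by cell type. *Erbb3* was most like *Plet1* (r = 0.983), *Marveld2* and *Zswim5*, *Erbb4* like *Cgn* (0.969) and *Atp1b1*, *Erbb2* like *Mmp15* (0.968), *Krt19* and *Mgea5*, and *Egfr* like *Hmcn1* (0.967), *Cyp2j9* and *Smarca1*. *Nrg1* was most like *Eogt* (0.980), *Actg2* and *Lama3*, and *Ereg* like *Slc38a4* (0.945), *Gng2* and *Olfml3*. *Areg* was most like *Myb* (0.949), *Asrgl1* and *Plekhh1*, *Btc* like *AU018091* (0.941), *Cldn6* and *Myb*, *Egf* like *Gjb1* (0.974), *1810065E05Rik* and *Pxmp4*, and *Hbegf* like *Gm14137* (0.962), *Scamp5* and *Clu*. *Myb* was the gene common to the lists of *Areg* and *Btc*, which were themselves correlated at 0.92 over the 16 means. *Erbb3* and *Erbb4* were correlated at 0.91, and *Erbb3* and *Nrg1*, receptor and ligand, at -0.89.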

How the data were processed

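RNA from sorted luminal and basal cells had been amplified and sequenced. The authors aligned reads with GSNAP to the NCBI mouse genome build that preceded GRCm38, counted reads per gene with htseq-count, removed genes with few reads or with very many reads and little variation, and normalized with edgeR. Each deposited value is a signal in CPM, a gene's reads over the effective library size. No strand setting is given in the sources used here. Of 47 samples, the P14.5 basal replicate 2 library, set aside by the authors as an outlier, was not analysed here. Whole reads were recovered for 100% of values in each library (tolerance 0.01 reads). The floor of 3 reads covers counting error only, since amplified reads include copies. Standard errors are those of the limma model and come from the spread between libraries of a condition.

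Of 17078 gene identifiers 16897 were matched to symbols, and exon lengths came from GENCODE. *Erbb2* shares 0.17% of its exon bases with *Mien1*, and the other members share none. A limma 3.58.1 model (R 4.3.3, trend) of log2(CPM + 1) held a mean for each of 16 conditions, without covariates. Fold changes are on that scale and understate changes of low genes. Benjamini-Hochberg adjustment was over all genes. edgeR 4.0.16 (quasi-likelihood test on recovered reads) was an alternative and called 4862 genes between the cell types over all time points, against 3580 by limma. DESeq2 1.42.0 gave the median-ratio scaling. The scripts were tested on simulated data.

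Luminal and basal libraries of a replicate number came from the same pooled mice. Their deviations from the group means correlated at -0.0048 to 0.386 (median 0.25, 22 pairs, 16 over 0.1), and the sort was fitted as a block (correlation 0.179) as an alternative. Replicates are separate sorts. Replicates 4 of L3 and L10 shared a sort date, as did replicates 5 of L3 and L10, and no model took this into account. The others tried were a pseudocount of 0.1, median-ratio scaling, no milk protein genes, a mean of at least 5 CPM, a false discovery rate of 0.05 and leaving out each of 24 sorts. Variation without the Id2 libraries and Iw4 against M4 with amplification batch as a term were added after seeing the data.

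Members and lists were chosen with earlier results of these data known. All 10 members are named. List genes are named if called between the cell types or in lactation, at most 4 per list and direction, and for likeness the 3 genes with the highest correlation. A few genes that this rule names are not reported here. Of the listed *Nrg3* has no row in the table used here, 16 of 20 immune, 10 of 12 Schwann cell and 6 of 10 adipocyte markers have one, and the adipocyte check (60%) is void. Schwann cell markers were 5 of 10 higher and 1 lower in basal cells. The build differs from that of the RefSeq promoters, from which only sequence is given.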

Additional observations from a re-analysis of the deposited data

How the results depend on the processing

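The 78 called differences of single genes kept their direction under every alternative. Under the alternatives other than leaving out a sort, 531 of 563 kept their call and 32 lost it, and with each of 24 sorts left out 1788 of 1872 did and 84 did not. A mean of at least 5 CPM leaves 8 of the 10 genes (*Egf* and *Btc* drop out), so the luminal counts became 1 in lactation, 1 for Id2 against W10, 2 for variation and 3 for successive time points. With the sort as a replicate block the lactation change differed between cell types for 1 gene (*Erbb3*), and besides this call the block added 3 at single time points (*Hbegf* at W10, *Erbb4* at P14.5 and *Btc* at Iw4) and changed no other call of these genes. At a false discovery rate of 0.05, 2 genes differed in that interaction (15.3% of all genes), 4 for Id2 against W10 in basal cells (22.7%) and 8 steps in luminal cells (7.16%). The difference of *Areg* between cell types in its lactation change (0.26) took the other sign with a pseudocount of 0.1 (-0.77), with edgeR (-0.21) and with M4 alone as never pregnant (-0.15), and ranged from -0.25 to 0.81 without each sort. The cause of these was not tested. With each sort left out, the genes called numbered 9 to 10 between the cell types, 3 to 3 in luminal and 1 to 4 in basal lactation, 0 to 2 in the interaction, 3 to 4 (luminal) and 1 to 3 (basal) for Id2 against W10, 0 to 0 for Iw4 against M4, 3 to 5 (luminal) and 4 to 6 (basal) for variation, 41 to 50 over single time points, and 3 to 7 (luminal) and 5 to 9 (basal) over successive steps. Depth limits *Egf*, *Btc*, luminal *Ereg* and *Nrg1*, and basal *Areg* (2 libraries) and *Erbb4* (1 library), whose lowest libraries hold fewer than 3 reads.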
